A study of Rattus norvegicus with 4 samples.

Results

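The data compared RNA of primary rat hepatocytes given growth hormone for 24 h with RNA of untreated hepatocytes harvested at the same time, both hybridised to the same 2-channel array. On such an array each spotted feature gives 1 log ratio between the channels. All features with a value on both 24 h arrays are described here, whether or not they had values at 48 h. They numbered 1251 of the 6240 features in the table, or 20.05%. There are 4 samples, 2 treated for 24 h and 2 for 48 h. Treated cells received bGH (commonly read as bovine growth hormone) at 100 ng/ml, and cells of both kinds grew on commercial Matrigel, a basement membrane extract, in Williams E, a medium for liver cells, to which vitamin C and insulin had been added. The 24 h labels describe the insulin as high. No strain, sex or age of the donor animals is given in the labels used here. On the first 24 h array, called forward in its title, treated RNA was in channel 2 with Cy5 and untreated RNA in channel 1 with Cy3, and on the second, called reverse, the channels were exchanged.

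Growth hormone, secreted by the pituitary, binds its receptor on hepatocytes and activates the kinase JAK2 and transcription factors of the STAT family, STAT5b above all. In liver it is known for inducing insulin-like growth factor and feedback inhibitors of its own signalling, and in rodents for setting the sex difference in the expression of steroid-metabolising enzymes. None of these genes could be looked up in these data. The table names its features by plate and well, and 0 of the 6240 IDs matched the rat RefSeq gene table or the sequence tables (assembly GRCr8), so the results are given for array features, the hepatocyte identity of the cells could not be checked against marker genes, and no sequence is shown.

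Which RNA is the numerator of the deposited log ratios is not given. Signs were kept as deposited, so whether a positive value stands for more or for less RNA in treated cells is unknown. It is also not given whether the ratios of the reverse array were already turned. If they were not, a ratio of the same sign on both arrays would follow the channel and not the hormone, and these cannot be told apart from the ratios. The log base is not given either, so differences are in log units as deposited, treated as log2. Channel intensities were not used, so no feature can be called dim or saturated. The labels name different batches of cells for the 24 h samples and, for the reverse array, also the same batch. All p-values thus reflect only how far the arrays lay apart, and that distance may be technical. If both 24 h arrays held the same RNA they would be 1 replicate, and 24 h would have no test.

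The forward array limited what could be compared at 24 h. It had 1306 values against 2435 on the reverse array, and 1251 features had both. Ratios also spread wider on it: over the 1251 features the SD was 0.86 on the forward and 0.58 on the reverse array, and the quartiles were -0.47 and 0.39 on the forward, against -0.28 and 0.25 on the reverse array. The forward ratio was the larger in size in 810 features, or 64.7%. The medians were 0.023 and 0.041, so both arrays were centred close to 0. The lowest and highest ratios were -6.68 and 3.53 on the forward array and -4.92 and 2.52 on the reverse array. Lower extremes thus lay farther from 0 than upper ones on both.

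Ratios on the 24 h arrays were related but far from identical. Across the 1251 features Pearson's r was 0.63 and Spearman's rho 0.54. Both are descriptions across features of the same arrays, which are not independent replicates. Without the 2 features farthest from the median on the forward array, r was 0.65. The median absolute difference between the arrays was 0.37 and the median size of the mean ratio 0.32. Across features the difference had an SD of 0.67 and the mean an SD of 0.65. These are not on the same scale, since noise alone makes a difference spread wider than a mean. The forward array was closer to the first 48 h array (r = 0.71, rho 0.70, 1214 features) than to its own reverse array. With the second 48 h array its r was 0.21 (rho 0.17, 1224 features). The reverse array had r = 0.58 with the first and 0.36 with the second 48 h array. By the labels the forward 24 h and the second 48 h array share their channel order, with treated RNA in channel 2, so the forward array was closest to an array of the opposite order.

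**Figure D1:**
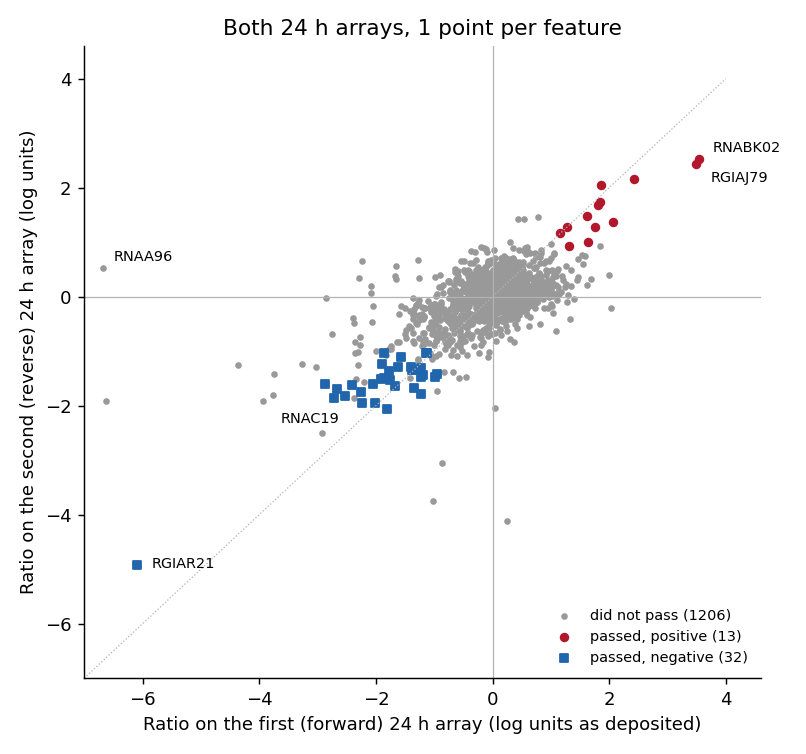
Ratio on the forward (x) and reverse (y) 24 h array for each of the 1251 features, in log units as deposited, with the dotted line marking equal ratios. Red circles are the 13 features that passed the 24 h test with positive ratios, blue squares the 32 with negative ratios, and grey points the others; RNAA96 lies alone at the left, with opposite signs on the arrays.

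Of the 1251 features, 876 (70.0%) agreed in sign between the 24 h arrays, 474 positive and 402 negative; with each array centred on its median the counts were 424 and 425. In 171 the forward ratio was positive and the reverse ratio negative, and in 204 the other way round. Opposite signs were found mostly among small ratios: the median size of the mean was 0.10 in the 375 features of opposite sign and 0.43 in the others. The share of the same sign was 15.3% of 216 features with a mean under 0.1 in size, 58.8% of 296 from 0.1 to 0.25, 84.4% of 360 from 0.25 to 0.5 and 96.3% of 269 from 0.5 to 1. From 1 to 2 it was 96.6% of 88, and 21 of 22 from 2 upwards. A mean near 0 can arise from arrays that oppose each other, so part of this gradient is built into the measure. With at least 0.5 on each array, 186 features had the same and 9 opposite signs, and with at least 1 on each array 64 (5.12%) had the same and 0 opposite signs.

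The widest gap was that of RNAA96, chosen after its values were seen, with -6.68 on the forward and 0.52 on the reverse array. These differ by 7.20, against 4.70 for the next widest gap. Its one 48 h value was -0.0082, on the second array. The lowest ratio of the forward array thus stood against values near or above 0 on the other arrays that measured this feature.

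The direction of the ratios depended on their size. Among features with a mean between 0.25 and 0.5, 233 were positive and 127 negative. Among the 110 features with a mean at least 1 in size, a change of 2 times or more if the base is 2, 21 were positive and 89 negative. The rule of at least 1 on each array gave 11 positive and 53 negative features. With each array centred on its median, the counts were 212 positive and 143 negative from 0.25 to 0.5, and 20 and 96 at 1 or more in size.

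**Figure D2:**
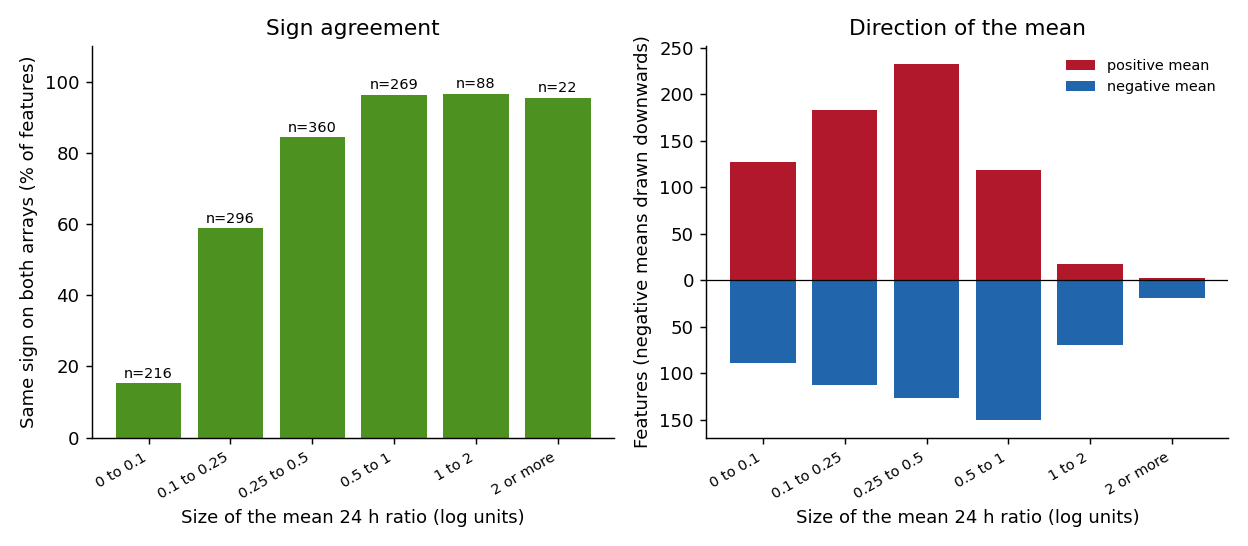
Left, share of features with the same sign on both 24 h arrays (y, percent) by size of the mean 24 h ratio (x, log units), with the number of features above each bar. Right, features with positive (red, upwards) and negative (blue, drawn downwards) means in the same size classes: 233 against 127 from 0.25 to 0.5, but 18 against 70 from 1 to 2.

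The ratios were tested against 0 with limma, which borrows information on the spread across features; the 48 h arrays entered the fit with a mean of their own to share the estimate of the spread. At a Benjamini-Hochberg adjusted p under 0.05, 45 features passed at 24 h, which is 3.60% of the 1251 tested. Of these, 13 (1.04%) had positive and 32 (2.56%) negative ratios. Without adjustment, 274 had a p under 0.05, of which 93 were positive and 181 negative. All 45 agreed in sign between the arrays and had a mean at least 1 in size. The other 65 features with a mean of that size, 8 positive and 57 negative, did not pass. The 13 positive features had means from 1.12 to 3.03 with a median of 1.72, and the 32 negative ones from -1.08 to -5.51 with a median of -1.57. On single arrays the positive features ranged from 1.15 to 3.53 on the forward and from 0.94 to 2.52 on the reverse array, and the negative ones from -0.96 to -6.10 and from -1.03 to -4.92. The forward ratio was the larger in size in 33 of the 45. The count fell when the forward array was left out and rose when the reverse array was. Such fits leave 1 array at 24 h, so the error comes from the 48 h arrays alone. They cannot separate a dependence on the forward array from its wider scale (SD 0.86 against 0.58) or from lost replication. With array weights estimated by limma, 29 passed, all among the 45. With the channel of the treated RNA as a term in the fit, 33 passed, 7 positive and 26 negative, of which 25 were among the 45.

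RNABK02 had the highest mean ratio among the features that passed. It was at 3.53 on the forward and 2.52 on the reverse array, with a mean of 3.03 ± 0.71 (SD, n = 2 arrays; limma adjusted p = 0.029). At 48 h it was at 2.36 and 1.15. RGIAJ79, an ID of another plate, had nearly the same values: 3.49 and 2.44 at 24 h, a mean of 2.96 ± 0.75 (limma adjusted p = 0.023), and 2.12 and 1.496 at 48 h. Both were positive on all 4 arrays, and both were lower on each 48 h array than on either 24 h array. The difference of 48 h minus 24 h was -1.27 ± 0.53 (SE) for RNABK02 and -1.16 ± 0.44 for RGIAJ79, and neither passed (limma adjusted p = 0.72 for each).

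RGIAR21 had the lowest ratio of all features by mean, at -6.10 on the forward and -4.92 on the reverse array, a mean of -5.51 ± 0.83 (SD, n = 2 arrays; limma adjusted p = 0.042). That is a change of 45.5 times if the base is 2. At 48 h the arrays disagreed, with -3.89 and 0.22, so its 48 h mean of -1.84 had an SD of 2.91. It did not pass at 24 h after quantile normalization (-4.33, limma adjusted p = 0.11), and its limma adjusted p ranged from 0.012 to 0.11 over the refits that kept the signs of the arrays as deposited. Without the forward array, RGIAR21 and the other 3 features named for their means lay nearer to 0. Their ratios were then 2.52 for RNABK02, 2.44 for RGIAJ79, -4.92 for RGIAR21 and -1.86 for RNAC19. RNAC19 had the next lowest mean among those that passed, at -2.71 and -1.86, a mean of -2.29 ± 0.60 (limma adjusted p = 0.029). At 48 h it was at 0.60 and -0.058, near or above 0 on both arrays, and far from either 24 h value. Its difference of 48 h minus 24 h was 2.56 ± 0.40 (SE) and did not pass (limma adjusted p = 0.22).

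The features that passed at 24 h were followed to 48 h by direction. Of the 13 positive features 12 had 48 h values, and all 12 were positive on both 48 h arrays. Over all 13 the median was 1.81 on the forward and 1.48 on the reverse 24 h array. Over the 12 it was 1.60 and 1.23 on the first and second 48 h array. In 10 of the 12 the 48 h mean was at least 1. Of the 32 negative features, 31 had values on both 48 h arrays. Of these, 22 were negative on both and 4 positive on both. The medians of the negative features with a value on each array were -1.77 and -1.51 at 24 h, against -0.51 and -0.28 at 48 h. In 6 of the 32 the 48 h mean was -1 or lower. Of the 64 features chosen by size and sign alone, the 10 positive ones with both 48 h values had a median 48 h mean of 1.60, all at 1 or above. The 51 negative ones had a median of -0.64, with 12 of them at -1 or below. By array, the 48 h medians were 1.91 and 1.29 for these positive and -1.01 and -0.25 for these negative features, so the negative ones lay nearest to 0 on the second 48 h array. Ratios of all measured features also spread least on that array. Their SD was 0.42 there, against 0.63 on the first 48 h, 0.86 on the forward and 0.58 on the reverse array. The features followed here were chosen for large 24 h ratios, which favours smaller ratios elsewhere in both directions. The contrast between directions was not tested. The gap between the 48 h arrays also entered the 24 h test, so close 48 h values helped a feature to pass. Among all 1204 features with both 48 h values, 759 (63.0%) had the same sign on both 48 h arrays.

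The difference between the times was tested for each feature in the same fit. It passed for 0 of the 1234 features with a 48 h value (0%), with limma and an adjusted p of 0.22 at the lowest, a value shared by 8 features, of which 6 were higher and 2 lower at 48 h. The one with the smallest unadjusted p (0.00049 with limma) was farther from 0 at 48 h, with means of -1.66 at 24 h and -3.47 at 48 h. Without adjustment, 77 of the 1234 features had a limma p under 0.05, which a share of 0.05 would reach if no feature differed. The ratio was higher at 48 h in 51 of the 77 and lower in 26, and this split was not tested. Of the features that passed at 24 h, 26 of the 32 negative ones were among these 77, and 3 of the 12 positive ones with a 48 h value. These share the 24 h values that chose them. The median standard error of the difference was 0.29. With a channel term 1 feature passed. Leaving out the reverse array, which leaves 1 array at 24 h, also raised the count.

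**Figure D3:**
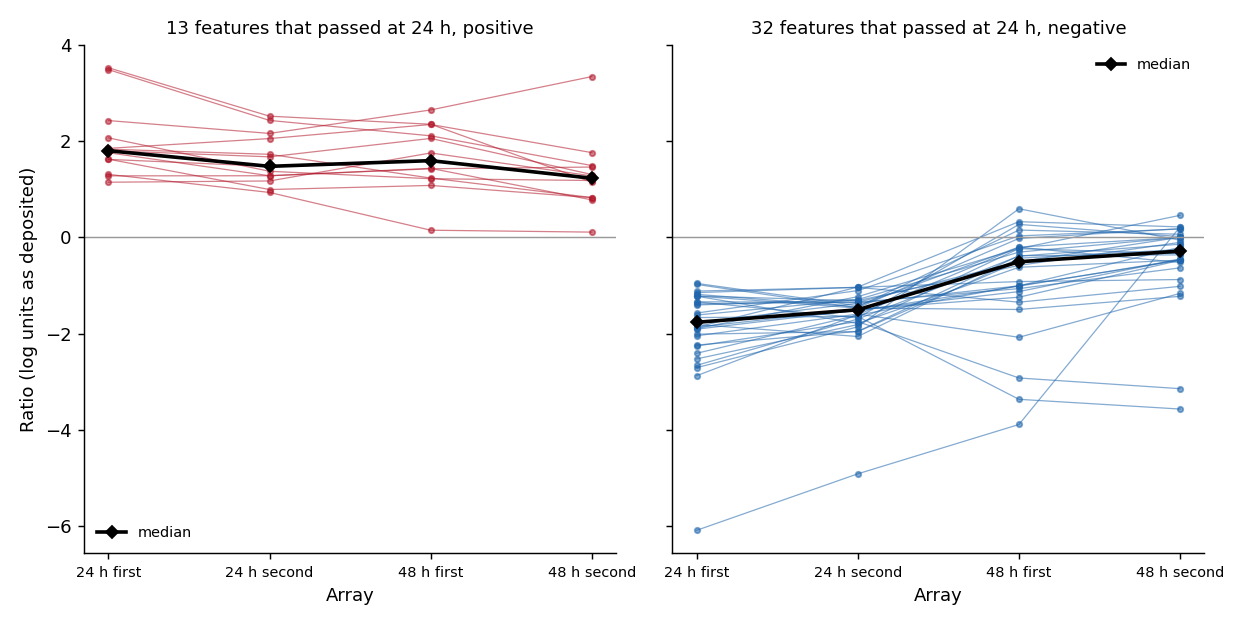
Ratios (y, log units as deposited) of the 13 positive (left) and 32 negative (right) features that passed at 24 h on the 4 arrays (x), 1 line per feature, with the median in black. The positive medians run from 1.81 on the forward 24 h to 1.23 on the second 48 h array, and the negative ones from -1.77 to -0.28; RGIAR21 is the lowest line on all but the second 48 h array, where it is at 0.22.

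Measured features were spread unevenly over the families of IDs. IDs starting with RGI gave 723 of 2592 features (27.9%), those starting with RNA 519 of 3456 (15.02%), and those starting with MKA 9 of 192 (4.69%). The meaning of these prefixes is not stated. The RGI features that passed were mostly negative, with 3 positive and 23 negative, or 0.415% and 3.18% of those measured. The RNA features gave 10 positive and 8 negative, or 1.93% and 1.54%, and the MKA features 1 negative. Pearson's r between the 24 h arrays was 0.65 in RGI and 0.58 in RNA features, and their median means were 0.014 and 0.060. With at least 1 on each array, RGI features gave 2 positive and 37 negative and RNA features 9 and 15.

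Plates differed in their centre on each array. All 65 plates had at least 1 measured feature and at most 62. On the 25 plates with 20 or more, which hold 787 features, the median of the mean ratio ranged from -0.47 to 0.26. In 18 of the 25 the plate medians had the same sign on both arrays, 11 of 18 RGI and 7 of 7 RNA plates. Of single features, 70.0% agreed in sign. Among the 25, the lowest median was that of plate RGIAE, with -0.56 on the forward and -0.39 on the reverse array over 53 features. Smaller plates ranged further on both sides, with median means of -0.49 for RGIAV (17 features) and 0.46 for RNABT (10 features). Plate RGIAE also had the most features that passed, 5 of its 53, all negative. That compares with 45 of 1251 over all plates. The largest plate, RGIAA with 62 features, had 4, all negative. With plate medians subtracted on each array for the 54 plates with at least 10 measured features, an alternative chosen after seeing the data, 2 features of RGIAE passed, and 39 in all, 33 of them among the 45. The RGI features then gave 3 positive and 18 negative, and the RNA features 7 and 10.

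**Figure D4:**
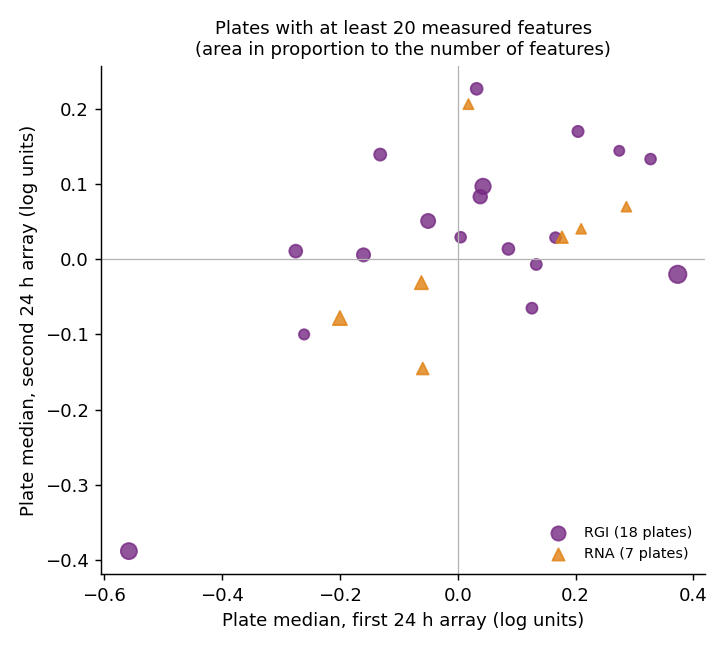
Median ratio of each plate with at least 20 measured features on the forward (x) and reverse (y) 24 h array, in log units, for 18 RGI plates (purple circles) and 7 RNA plates (orange triangles), with area in proportion to the number of features. Among the plates shown, RGIAE stands apart at -0.56 and -0.39.

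Features with missing 48 h values were kept. Of the 1251, 1204 had both 48 h values, 30 had 1 and 17 had none. The 47 incomplete features had a median mean size of 0.45 at 24 h, against 0.32 in the 1204 complete ones, and 68.1% against 70.1% agreed in sign at 24 h. 2 of these passed and would not have been seen among features complete at both times. The positive one had 1.62 and 1.48 at 24 h, a mean of 1.55 ± 0.10 (SD, n = 2 arrays; limma adjusted p = 0.031), and no 48 h value. The negative one had -1.61 and -1.30, a mean of -1.46 ± 0.23 (limma adjusted p = 0.042), and a single 48 h value of -0.17. Among the 1204 complete features alone 57 passed, 43 of them among the 45, so keeping the 47 lowered the count.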

How the data were processed

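RNA of treated and untreated cells was measured on 2-channel arrays. The authors deposited 1 table of signed log ratios, treated here as log2; no source used here states the log base, the numerator or how the signal was corrected and normalized. Features with a value in both 24 h columns were kept, with signs not turned. They were fitted across all 1251 features with limma 3.58.1 in R 4.3.3 (lmFit, eBayes; 1 mean per time; 2 residual degrees of freedom in 1204 features and 1 in 47; 3.45 prior degrees of freedom), two-sided, with Benjamini-Hochberg adjustment over all features fitted. The median standard error at 24 h was 0.21, and precision is limited by having 2 arrays. Named features are the 2 highest and 2 lowest mean 24 h ratios among features that passed and agreed in sign at 24 h. Members, lists and tests were chosen with earlier results of these data known. Gene and marker lists could not be applied, since no ID has a gene name here. Alternatives changed the normalization, signs, features, arrays, covariates, moderation and thresholds.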

Additional observations from a re-analysis of the deposited data

Results flagged for a closer look

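Features measured on only 1 of the 24 h arrays took no part in the comparisons, and some had large ratios. On the reverse array, 86 (6.87%) of the 1251 features with both values had a ratio at least 1 in size, 71 negative and 15 positive. Of the 1184 features with a reverse but no forward value, 68 (5.74%) reached that size, 57 negative and 11 positive. On the forward array, 200 (15.99%) of the 1251 features reached it, 137 negative and 63 positive. Of the 55 features with a forward but no reverse value, 7 (12.7%) did, all 7 negative. The ratios measured on 1 array have no second 24 h array to set them against and were not tested.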

How the results depend on the processing

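The count of 45 at 24 h was 29 with array weights, 118 at an adjusted p under 0.1, 118 at an unadjusted p under 0.01 with at least 1.5 times, and 1 to 74 with each array left out in turn, where a lone array is taken to vary like the other time. Turning all signs exchanges the 13 positive and 32 negative calls and gives ratios of -3.03 for RNABK02, -2.96 for RGIAJ79, 5.51 for RGIAR21 and 2.29 for RNAC19. Reading the columns as channel 2 over channel 1 gave 0 calls, 375 features of the same sign, 0 with at least 1 on each array and r = -0.63, as turning 1 of 2 arrays must for the last 3. Quantile normalization gave 14 positive and 22 negative calls, and median centring 13 and 45. Among features with a value on all 4 arrays r was 0.67. At least 1.5 times on each array with the same sign was reached by 149 features. For 48 h minus 24 h the count of 0 was 1 with a channel term, 21 at an unadjusted p under 0.01 with at least 1.5 times, and 0 to 7 with each array left out. The causes were not tested. No paired analysis was possible because the labels give no numbers that pair arrays across times. Without intensities, it is unknown how far signal near background limits these ratios.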
